A study of Mus musculus with 3 samples.

Results

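The intercalated disc is the end-to-end contact between cardiomyocytes, and the genes described here are 10 that encode its gap junction and adhesion proteins. They were chosen by name from the 56748 genes of the table and all 10 were found, namely Gja1, Gja5, Gjc1, Cdh2, Dsp, Dsg2, Dsc2, Jup, Pkp2 and Tjp1. RNAseq was performed on adult ventricular cardiomyocytes (ACMs) isolated from hearts of wild-type (WT) male and female mice aged 8 to 10 weeks. ACMs were cultured with vehicle (0.1% BSA), with mouse oncostatin-M (OSM) at 10 ng/mL or with human IL-6 at 10 ng/mL, for 16 h. All 3 cultures were in serum-free M199 with insulin-transferrin-selenium, lipid supplement and 10 mM BDM, a myosin inhibitor that keeps the isolated cells from contracting. OSM and IL-6 are cytokines that signal through the shared receptor chain gp130 to JAK kinases and STAT3. The study set out to identify genes that OSM regulates in ACMs, and the vehicle-treated ACMs are the reference for both cytokines.

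The RNA samples were pooled into 1 library for each condition, and without replicates none of the differences below could be set against a spread between cultures. Isolated ACMs have been separated from their neighbours, so the transcripts were measured in cells without intact discs. The counts assigned to genes summed to between 24939980 and 30773001 per library, and 3 counts, taken as the floor of detection, correspond to between 0.0975 and 0.120 CPM, the count scaled to the library total. Socs3, a feedback inhibitor induced by STAT3, had 670 counts with vehicle, 646 with IL-6 and 18194 with OSM. The OSM library was thus far above both others, which did not differ by 2-fold. All 10 cardiomyocyte markers had counts in every library, the fewest being 7191 for Ttn with OSM. Myh6 had 187212 with vehicle and 215067 with OSM, and after scaling to library size its log2 fold change was -0.04. With OSM 5 of the 10 were above their vehicle level after scaling and 5 below, and Ttn, at 18901 counts with vehicle, was the lowest.

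Gap junctions are channels that let current pass from cell to cell. They are built of connexins, of which Cx43, encoded by Gja1, is the main one of the working ventricle. Adherens junctions hold the cells together through N-cadherin, encoded by Cdh2. Desmosomes do so through the cadherins Dsg2 and Dsc2, the armadillo proteins plakoglobin (Jup) and plakophilin-2 (Pkp2), and desmoplakin (Dsp), which ties them to desmin filaments. In the heart both junction types mix in the area composita, and ZO-1, encoded by Tjp1, is a scaffold that binds Cx43. Mutations in the desmosomal genes are a known cause of arrhythmogenic cardiomyopathy.

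The promoters of 3 members are shown because Gja1 and Dsp were lower with OSM while Jup was above its vehicle level. Each runs from 250 bases before the RefSeq start to 50 bases after it, 300 bases in all. The sequences are those of RefSeq (assembly GRCm38.p6), and each was found once in GRCm39, where Gja1 is at chr10:56253146-56253445 on the plus strand, Dsp at chr13:38335020-38335319 on the plus strand and Jup at chr11:100288567-100288866 on the minus strand. Capitals mark an AP-1 motif in Gja1 and GC boxes in Dsp and Jup.
Gja1: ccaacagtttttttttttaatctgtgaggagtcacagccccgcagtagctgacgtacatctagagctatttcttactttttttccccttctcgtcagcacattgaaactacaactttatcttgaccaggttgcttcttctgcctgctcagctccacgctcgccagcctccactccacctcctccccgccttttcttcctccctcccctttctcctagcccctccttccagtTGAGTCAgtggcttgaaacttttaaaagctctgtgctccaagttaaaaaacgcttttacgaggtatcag
Dsp: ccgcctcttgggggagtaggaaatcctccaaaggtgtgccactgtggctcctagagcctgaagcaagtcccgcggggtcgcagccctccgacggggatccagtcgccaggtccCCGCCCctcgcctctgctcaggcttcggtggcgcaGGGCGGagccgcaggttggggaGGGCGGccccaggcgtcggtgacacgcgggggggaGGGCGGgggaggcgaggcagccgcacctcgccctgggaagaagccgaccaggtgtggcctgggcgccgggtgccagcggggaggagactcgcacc
Jup: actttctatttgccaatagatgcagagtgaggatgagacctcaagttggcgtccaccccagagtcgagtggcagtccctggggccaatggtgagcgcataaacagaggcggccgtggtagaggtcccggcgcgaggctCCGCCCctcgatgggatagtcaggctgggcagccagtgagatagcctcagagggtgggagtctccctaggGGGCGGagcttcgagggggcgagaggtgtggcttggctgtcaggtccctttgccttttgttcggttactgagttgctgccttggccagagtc

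The Gja1 promoter was the poorest in GC of the 5 members found in the table, at 47.7%, against a median of 52.7% over all 32851 promoters. It held 8 CpG dinucleotides and 1 AP-1 motif (TGANTCA, both strands), which begins 19 bases before the start and was present in 7.81% of all promoters. The Dsp promoter was 73% GC, with 27 CpG dinucleotides and 4 GC boxes (GGGCGG, both strands). The Jup promoter was 60.7% GC and held 2 GC boxes. A GC box was present in 35.7% of all promoters. None of the 5 promoters, those of Dsp, Gja1, Gja5, Jup and Tjp1, held the STAT motif TTCNNNGAA, which was present in 8.30% of all promoters. These letters describe a window of 300 bases and are not binding sites.

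In vehicle-treated ACMs the transcript levels of the members, given as the authors' fpkm, spanned from 0.158 for Gja5 to 67.6 for Dsp. These fpkm divide by the gene length of the authors' annotation, which can differ from the canonical transcript. It is 10257 bases against 4700 for Gja1, 6436 against 3302 for Jup, 9659 against 9632 for Dsp and 5003 against 5638 for Gjc1. The order of the genes and their shares of summed fpkm rest on the annotation lengths, and were not computed on transcript lengths. Dsp was followed by Cdh2 (46.5 fpkm), Pkp2 (42.0), Gja1 (37.5) and Jup (27.4), then after a gap by Dsg2 (6.71), Tjp1 (6.51), Dsc2 (5.17) and Gjc1 (1.99). Each neighbour in this order differed by more than counting error, except Dsg2 and Tjp1, whose ratio was 1.03 with a 95% counting interval of 0.955 to 1.11. With IL-6 the order was the same. With OSM it was Jup (48.4), Pkp2 (32.2), Dsp (29.9), Cdh2 (27.9), Gja1 (8.64), Tjp1 (3.41), Gjc1 (2.90), Dsg2 (2.68), Dsc2 (2.63) and Gja5 (0.105). Here the steps from Gjc1 to Dsg2 and from Dsg2 to Dsc2 were within counting error.

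**Figure D1:**
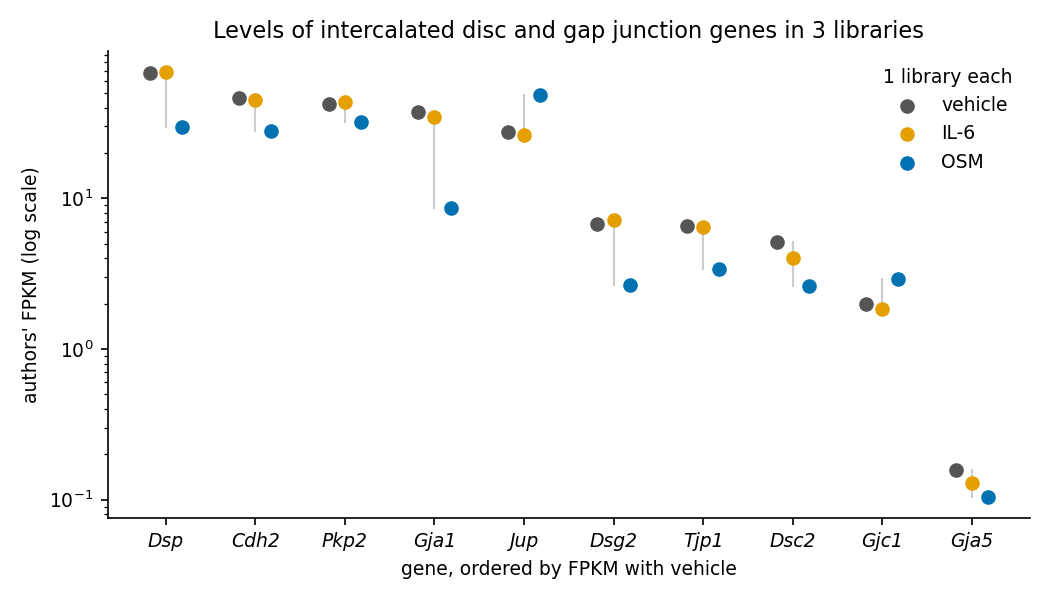
Transcript levels of the 10 members (x axis, ordered by level with vehicle) in fpkm on a log scale (y axis); each point is 1 library. The vehicle and IL-6 points lie close together for most genes, whereas Gja1 falls from 37.5 fpkm with vehicle to 8.64 with OSM and Jup is at 48.4 with OSM against 27.4.

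In OSM-treated ACMs, 8 of the 10 members were below their vehicle level and 2 were above it. A gene was called lower or higher when the whole 95% counting interval of its log2 fold change lay beyond 2-fold. By this rule 3 of the 10, Gja1, Dsp and Dsg2, were lower and 0 were higher, beside 5.43% of the 15537 genes compared called lower and 3.74% called higher. Whether the members' share differs from that of all genes was not tested. The median log2 fold change of the members was -0.84, and that of all genes compared was 0.005. In a bulk sample, fewer cells of a type and less RNA per cell cannot be told apart. The intervals cover counting error only, and they compare these libraries and not the conditions.

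**Figure D2:**
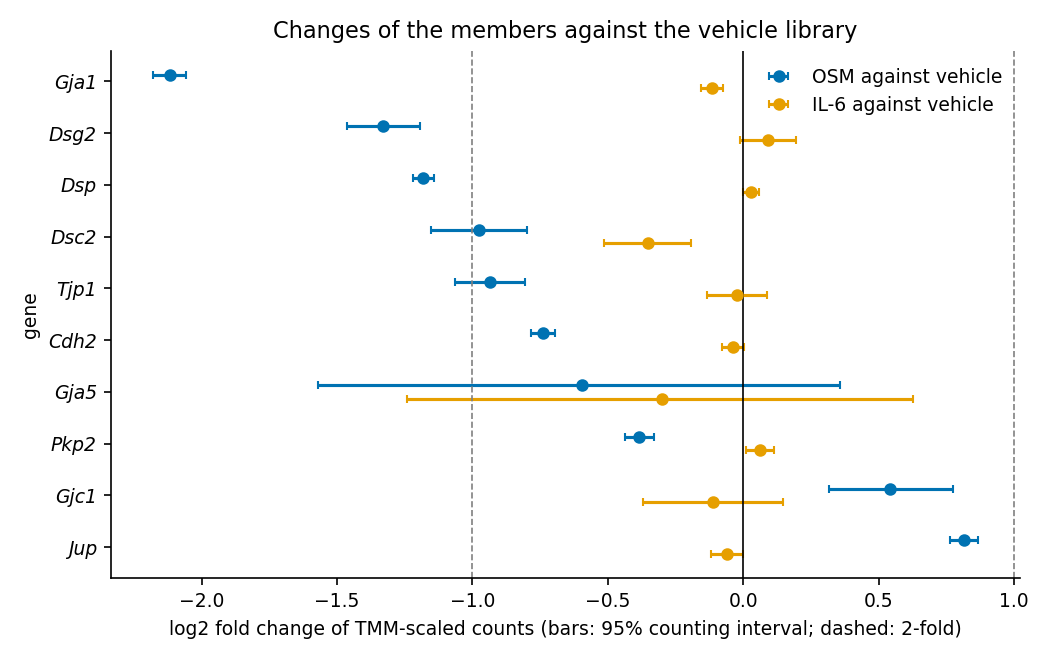
Log2 fold change of TMM-scaled counts against the vehicle library (x axis) for each member (y axis, ordered by the OSM value); points are single-library ratios, bars are 95% counting intervals and dashed lines mark 2-fold. With OSM the members run from -2.12 for Gja1 to 0.82 for Jup, and with IL-6 from -0.35 for Dsc2 to 0.09 for Dsg2.

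Among the connexins, Gja1 fell with OSM. It had 9722 counts with vehicle, 9621 with IL-6 and 2648 with OSM. The vehicle and IL-6 libraries were alike in level, and the OSM library was far below both. Its log2 fold change against vehicle was -2.12 (95% interval -2.18 to -2.06), which is 4.34-fold lower. The call held when a coefficient of variation of 0.2 between libraries was assumed, but not at 0.4. Among all 15537 genes compared, 647 (4.16%) had a lower value. Among the 3717 genes with at least 10 fpkm with vehicle, 9 did, and among the 1391 with at least 30 fpkm, 1 did. Both limits were set on the vehicle library, where Gja1 was higher than with OSM, so the ranks within them are descriptive only. In the authors' annotation of GRCm39, Gja1 lies at chr10:56253426-56278609 on the plus strand, and its canonical transcript has 2 exons, with the whole coding sequence in exon 2.

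Gjc1 encodes Cx45, a connexin of the conduction system and of the embryonic heart. It had 252 counts with vehicle, 250 with IL-6 and 434 with OSM, so that the OSM library was the highest of the 3. In OSM-treated ACMs its log2 fold change, 0.54 (0.32 to 0.77), was above 0 by counting error but inside the 2-fold limit. Gjc1 lies at chr11:102690405-102710526 on the minus strand. Of its transcript, 3.44% matches another gene at 97% identity or more, and 6.97% has matches among 1151 genes at 90% or more. Gja5, which encodes Cx40 of the atria, the conduction system and arterial endothelium, lies at chr3:96812009-96984732 on the plus strand and was barely detected, with 23, 20 and 18 counts with vehicle, IL-6 and OSM. Between OSM and vehicle the log2 ratio was -0.60 with an interval from -1.57 to 0.36, and no difference was detectable at this depth. Gja5 also shares 165 exonic bases with Gpr89 on the opposite strand (888 counts with vehicle and 667 with OSM), and since it is not stated whether counting used the strand, its few counts are uncertain.

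The make-up of the connexin transcripts differed between the libraries. Gja1 accounted for 83.3% of the summed connexin fpkm with vehicle, 82.2% with IL-6 and 55.6% with OSM. Over the same libraries Gjc1 accounted for 4.43%, 4.38% and 18.7%. The remaining large share was that of Gja3, which encodes Cx46 and had 377 counts with vehicle, 408 with IL-6 and 307 with OSM, or 11.2%, 12.1% and 22.3% of the summed fpkm. The log2 fold change of Gja3 with OSM was -0.54 (-0.76 to -0.32). Only these 4 of the 20 connexin genes had at least 10 counts in any library. The ratio of Gja1 to Gjc1 in fpkm went from 18.8 with vehicle and 18.8 with IL-6 to 2.98 with OSM, a log2 change against vehicle of -2.66 (-2.89 to -2.43) that does not depend on the scaling between libraries.

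**Figure D3:**
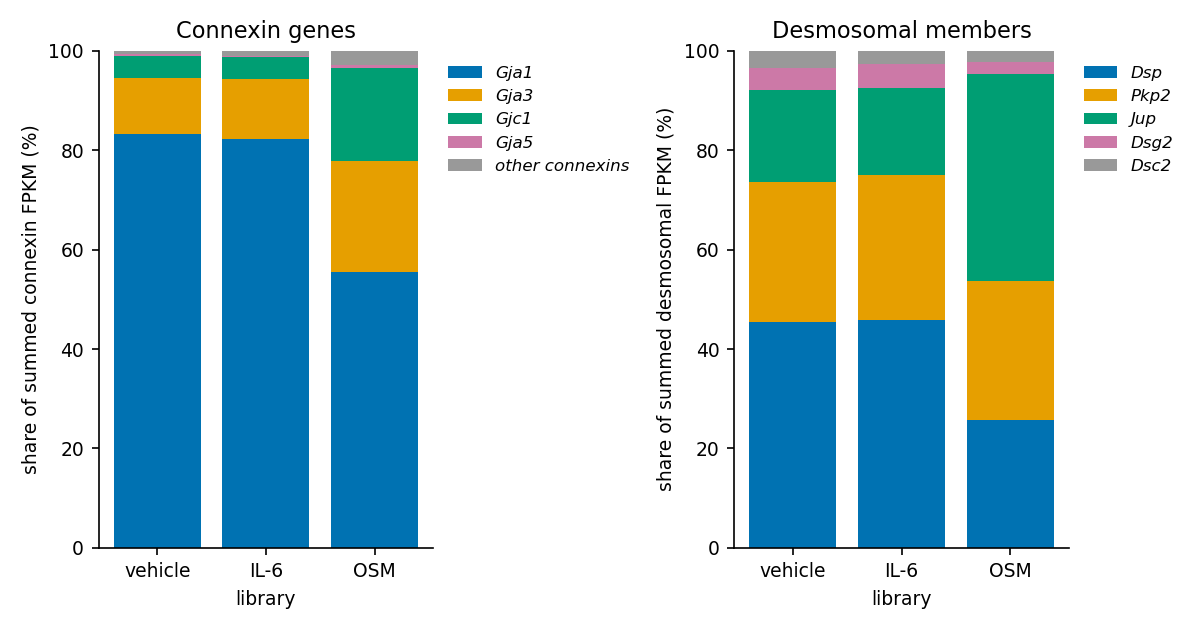
Share of each gene in the summed fpkm (y axis, percent) of all connexin genes (left) and of the 5 desmosomal members (right) in each library (x axis). In the OSM library the Gja1 share is 55.6% instead of 83.3%, and the Jup share of the desmosomal members is 41.8% instead of 18.4%.

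The desmosomal members differed in direction. Desmoplakin fell: Dsp had 16515 counts with vehicle, 18056 with IL-6 and 8613 with OSM, with a log2 fold change for OSM of -1.18 (-1.22 to -1.14), or 2.27-fold lower. Dsg2, the desmoglein of the heart, had 1404, 1602 and 661 counts and fell by 1.33 on the log2 scale (interval -1.46 to -1.19). For both genes the vehicle and IL-6 libraries were close and the OSM library was the lowest. Neither call held with an assumed coefficient of variation of 0.1 between libraries. Of the Dsp transcript 5.60% matches Gm10129 at 97% identity or more, a gene on the opposite strand with at most 6 counts in a library. Of the Dsg2 transcript 5.70% matches Gm16090 at that identity, also on the opposite strand, with 0 counts in every library. Dsp lies at chr13:38335270-38382553 on the plus strand, and Dsg2 and Dsc2 both lie on chromosome 18.

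Dsc2, the partner desmocollin, had 690 counts with vehicle, 579 with IL-6 and 415 with OSM. The interval of its OSM value, -0.98 (-1.15 to -0.80), crosses 2-fold, so it was not called. It was also the member whose IL-6 library departed most from vehicle. Pkp2, which clusters the cadherins at the plaque, had 5694, 6361 and 5159 counts and a value of -0.38 (-0.44 to -0.33) with OSM, the smallest departure from 0 of all members. Pkp2 lies at chr16:16031182-16090576 on the plus strand.

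Jup was above its vehicle level. Plakoglobin binds both desmosomal and classical cadherins and is a close relative of β-catenin. Jup had 4467 counts with vehicle, 4593 with IL-6 and 9295 with OSM, and the OSM library stood above both other libraries. The log2 fold change was 0.82 (0.76 to 0.87), or 1.76-fold, which is inside the 2-fold limit. Among all 15537 genes compared, 1979 (12.7%) had a higher value, and among the 3717 with at least 10 fpkm with vehicle, 200 did. That limit leaves out genes low with vehicle, which is 1 side of the fold change, so the rank within it is descriptive only. Jup lies at chr11:100259784-100288589 on the minus strand. Of its transcript, 9.45% matches 1 other gene at 90% identity or more, and 0% does at 97%.

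Within the desmosomal members, Jup made up 18.4% of the summed fpkm with vehicle, 17.5% with IL-6 and 41.8% with OSM, while Dsp made up 45.4%, 45.9% and 25.8%. The ratio of Jup to Dsp in fpkm was 0.406 with vehicle and 1.62 with OSM, a log2 change of 2.00 (1.93 to 2.06). The ratio of Jup to Pkp2 changed by 1.20 (1.12 to 1.27) on the same scale. Gja1 and Jup were the extremes of the 10, and their ratio changed by -2.93 (-3.01 to -2.85), or 7.64-fold.

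Cdh2 and Tjp1 were below their vehicle levels without passing the limit. Cdh2 had 9483 counts with vehicle, 9887 with IL-6 and 6719 with OSM, a log2 fold change with OSM of -0.74 (-0.78 to -0.69). Tjp1 had 1287, 1358 and 796 counts and a value of -0.93 (-1.06 to -0.81). In both, the OSM library was the lowest. Tjp1 lies at chr7:64945913-65177529 on the minus strand, and Cdh2 is on chromosome 18. Grouped by role, connexins made up 16.4% of the members' summed fpkm with vehicle and 7.34% with OSM, and the armadillo proteins Jup and Pkp2 28.7% and 50.8%. The members summed to 242 fpkm with vehicle, 239 with IL-6 and 159 with OSM.

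With human IL-6 none of the 10 members was called, lower or higher, while 1.74% of the 15472 genes compared were called lower and 1.77% higher, shares at which few or no calls among 10 genes say nothing particular of the members. The log2 fold changes ran from -0.35 to 0.09, with a median of -0.05. Dsc2 was lowest, at -0.35 (-0.51 to -0.19), and Gja1 had a value of -0.11 (-0.16 to -0.07). For Jup the value was -0.06 (-0.12 to 0.00) and for Dsp 0.03 (0.00 to 0.06). No member differed from vehicle by as much as 2-fold at either end of its interval, other than Gja5 (-1.24 to 0.63), which the depth does not resolve.

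Against the IL-6 library, OSM again gave 3 called members, Gja1, Dsp and Dsg2, all lower, and 0 higher, beside 5.42% of the 15544 genes compared called lower and 4.24% called higher. The OSM library is shared with the comparison against vehicle, so the values are given side by side and are not independent. Gja1 was at -2.00 (-2.07 to -1.94) against IL-6 and -2.12 against vehicle. Dsp was at -1.21 (-1.25 to -1.17) and -1.18, and Dsg2 at -1.42 (-1.55 to -1.29) and -1.33. Jup was at 0.88 (0.82 to 0.93) and 0.82. Dsc2, by contrast, was at -0.62 (-0.81 to -0.44) against IL-6 and -0.98 against vehicle.

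Gene length moved with the OSM values across the table. The trend was taken over 9445 protein-coding genes averaging 100 counts or more in the pair. Their log2 fold change had a Spearman correlation with gene length of -0.52, as a description across genes of the same pair of libraries. The median went from 0.47 in the shortest eighth of these genes to -0.56 in the longest. In the authors' annotation the members are 5003 to 10257 bases long, with a median of 7123.5 against 4704 for these genes. Their canonical transcripts run from 2953 bases for Pkp2 to 9632 for Dsp, with Gja1 at 4700. The trend was not taken on transcript lengths. Of the 4398 genes of at least 5000 bases 7.46% were called lower. In the longest eighth, from 9608 bases, 16.1% were, and Gja1 and Dsp lie in its range. With the course of the trend subtracted, Gja1 was at -1.70 and still called, Dsp at -0.81 and Dsg2 at -1.04 (-1.18 to -0.91), neither of them called, Cdh2 at -0.47 and Jup at 0.96. The shares and the ratios between members given above are without this subtraction. The trend was -0.42 at the length of Gja1, -0.38 at that of Dsp and -0.15 at that of Jup. It was -0.03 at the length of Gjc1 and 0.20 at that of Gja3. Whether length has a part in the members' values, shares and ratios was not tested.

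**Figure D4:**
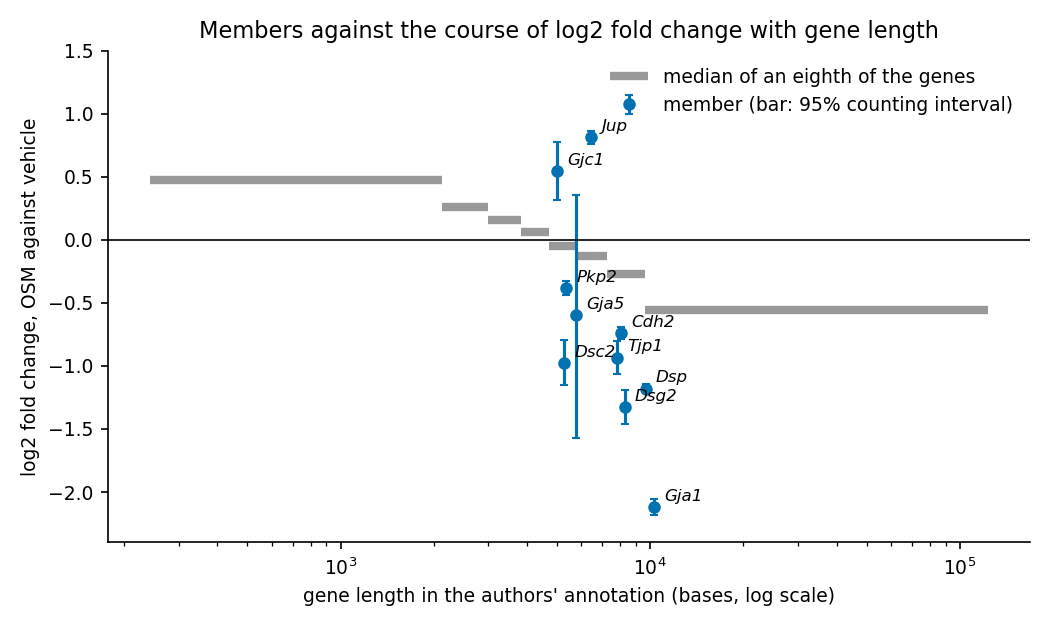
Log2 fold change with OSM against vehicle (y axis) by gene length in bases on a log scale (x axis); points are members with 95% counting intervals, and grey bars are medians of eighths of 9445 protein-coding genes, each drawn over its range of lengths. The grey bars descend from 0.47 to -0.56; Gja1 lies at -2.12, far under the bar at its length, and Jup at 0.82 lies above the bar at its length.

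Other junction genes were taken from lists by function. The counts called with OSM in these and the later lists stand beside 5.43% of all genes compared called lower and 3.74% called higher. Of the genes of at least 5000 bases 7.46% were called lower, and 16.1% of those in the longest eighth, from 9608 bases. Whether any list differs from these shares was not tested. Of the adherens junction and area composita genes, 13 of 14 were compared, and with OSM 2 were called lower and 0 higher, with a median of -0.35. Those lower were Ctnna3, the αT-catenin of the area composita, with 534 counts with vehicle and 258 with OSM (-1.29, interval -1.51 to -1.07), and Cdh4, R-cadherin, with 302 and 139 (-1.36, -1.66 to -1.07). With the length trend subtracted neither was called, at -1.08 (-1.30 to -0.87) for Ctnna3 and -1.15 (-1.45 to -0.86) for Cdh4. Ctnnb1, the β-catenin relative of Jup, had a value of -0.65 (-0.70 to -0.60), opposite in sign to that of Jup. All 16 other intercalated disc genes were compared, and 2 were called lower and 0 higher, with a median of -0.15. They were Xirp2, a Xin repeat protein that binds actin at the disc, with 29804 and 16170 counts (-1.12, -1.15 to -1.10), and Ank2, ankyrin-B, which anchors ion channels and transporters, with 3482 and 1600 (-1.36, -1.45 to -1.28). Both are long genes, and with the length trend subtracted Xirp2 was at -0.45 (-0.48 to -0.43) and Ank2 at -0.07 (-0.16 to 0.02), neither of them called. Xirp1, the sister gene of Xirp2, had 10322 and 21842 counts and a value of 0.84 (0.81 to 0.87).

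Among 14 genes of Cx43 trafficking and kinases, all compared, 1 was called higher and 0 lower with OSM, with a median of 0.11. It was Cav3, the muscle caveolin, with 594 counts with vehicle and 3083 with OSM (2.13, 2.01 to 2.26), and it was still called with the length trend subtracted, at 1.62. Of 12 scaffold and tight junction genes, 10 were compared and 0 were called, with a median of -0.14, or -0.03 when Ocln, at 0 counts with vehicle and 10 with OSM, is put at its bound against the floor of 3 counts. Of 13 other desmosome genes, 4 were compared, and 1, Ppl (periplakin, named after its values were seen), was called lower, on 11 counts with vehicle and 0 with OSM. Des, the desmin to which desmoplakin binds, was at 0.63 (0.62 to 0.65). Of the 17 other connexins 1 was compared, and of the 3 pannexins, channel proteins related in shape to connexins, 2 were, and none of these was called. With IL-6, of all these lists, 1 gene was called, Ocln, on 0 and 12 counts, beside 1.77% of all genes compared called higher.

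**Figure D5:**
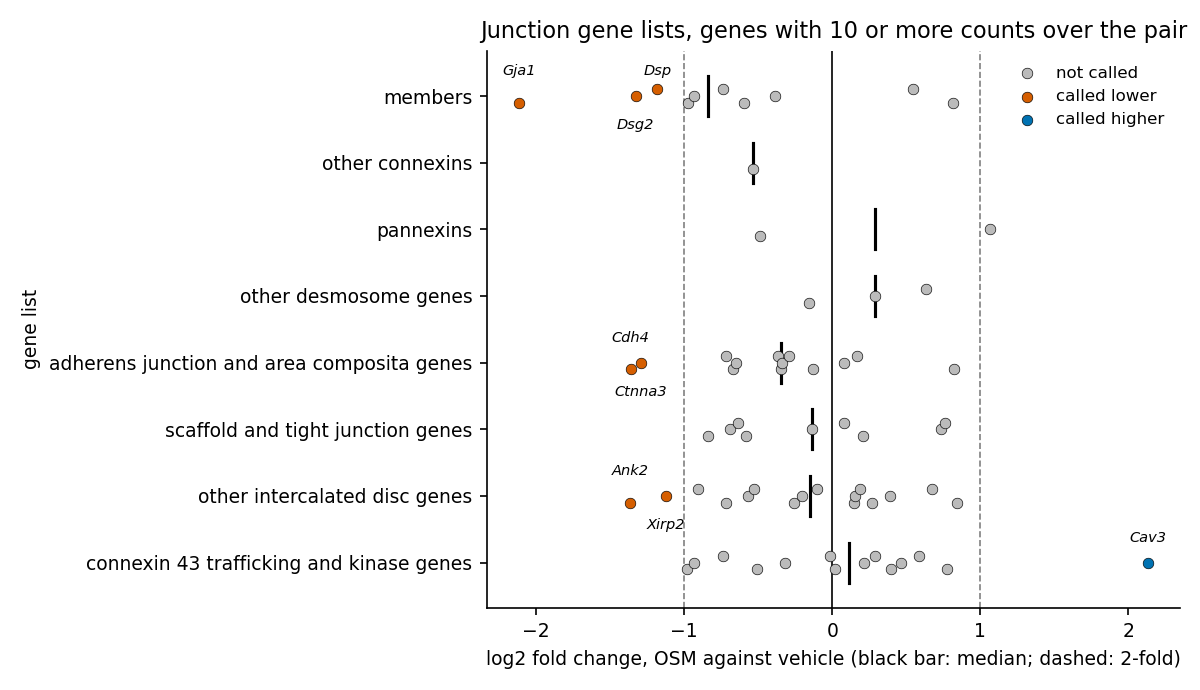
Log2 fold change with OSM against vehicle (x axis) of each compared gene in the members and the 7 other junction lists (y axis); orange and blue points are called lower and higher, grey points were not called, black bars are medians and dashed lines mark 2-fold. Ppl and Ocln, with 0 counts in 1 library, are not drawn. Cav3 at 2.13 is the only gene right of the upper limit whose interval lies beyond it.

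Markers of other cell types were summed in each library. The endothelial markers were at 41.1 CPM with vehicle, 45.0 with IL-6 and 44.9 with OSM, and 1 of 10, Erg, was called higher with OSM, on 18 and 81 counts. Fibroblast markers were at 6.86, 9.48 and 7.28, with none called with OSM against vehicle. Macrophage markers were at 23.8, 24.0 and 54.4, and Cd68 was called higher, on 382 and 1419 counts. Without Cd68 the other 9 macrophage markers summed to 8.46, 6.98 and 8.25 CPM. With the length trend subtracted Cd68 was not called. Of the 10, 4 with vehicle and 5 with OSM had 0 counts. Smooth muscle and pericyte markers were at 207, 236 and 110, and Abcc9, which cardiomyocytes also express, was called lower, though not with the length trend subtracted. Without Abcc9 the other 9 summed to 37.7, 40.6 and 44.7 CPM. Atrial and conduction markers, which bear on Gja5 and Gjc1, were at 75.1, 77.0 and 97.8, with none called. Epicardial markers were at 5.81, 6.94 and 3.90, with Krt19 called lower with OSM at 18 and 0 counts, and Msln called higher with IL-6 at 1 and 33 counts. Among the cardiomyocyte markers, 2 of 10, the very long Ttn and Ryr2, were called lower and the median was 0.05. Neither was called with the length trend subtracted. The part of these other cells in the members' values was not tested. Erg, Krt19 and Msln are named after their values were seen.

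Among 3531 protein-coding genes with at least 10 fpkm with vehicle, Ppp1r3a and Pdpr were the nearest to Gja1 in both log2 fold changes against vehicle. Ppp1r3a, which targets a phosphatase to glycogen in muscle, was at -2.03 with OSM and -0.24 with IL-6. Pdpr, a regulator of pyruvate dehydrogenase phosphatase, was at -2.23 and 0.06. Their distances from Gja1, over these 2 values, were 0.148 and 0.206. The values share the vehicle library, on which the limit of 10 fpkm was also set, so the distances are descriptive only.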

How the data were processed

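RNA was extracted from cultured ACMs, pooled and sequenced as paired reads, with 1 library per condition. The submitters' processing notes name fastp, HISAT2 2.2.1, featureCounts 2.0.6, edgeR 4.0.16 and mm39, and the study's methods give an older featureCounts. Whether counting used the strand is not given in the sources used here. The authors deposited whole-number counts per gene, not normalized, and FPKM values made from them by gene length and library size. Every per-sample column matched a label (0 unmatched).

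For each pair of libraries, TMM factors were computed over all genes with edgeR 4.0.16 in R 4.3.3, and comparison was limited to genes whose counts in the pair summed to 10 or more. The log2 fold change is the ratio of scaled counts with a 95% Clopper-Pearson interval, and a gene was called when that interval lay beyond 2-fold. Reads were not collapsed by molecular identifiers, so copies of the same molecule count separately and the intervals may be too narrow even for counting error. With 1 library per condition the intervals cover counting error only, and no p-value is given. The change of a ratio between members has a normal 95% interval from its 4 counts. Calls used the counts as they are, also where a library had 0. The floor of 3 counts took the place of 0 only where a bound is given for a list median. The length trend is a lowess curve (span 0.3) on log10 gene length. Exon numbers are from GENCODE M39, which holds 56017 of the 56748 identifiers, and overlaps and copies were checked in it.

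The members, the 14 lists beside them and the settings were chosen with earlier results of these data known. Named are all members, up to 5 called genes of each list for OSM and up to 3 for IL-6 with at least 1 FPKM, Socs3, genes that overlap a member and the 3 genes nearest to Gja1, of which 1 is not reported here. Other genes with values, such as relatives of a member, were named after their values were seen. The alternatives were other scalings (among them DESeq2 1.42.0 size factors), filters, estimates, calling limits, thinning, the length trend and assumed spreads.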

Additional observations from a re-analysis of the deposited data

How the results depend on the processing

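Members kept their direction in every comparison under each alternative run. Of the 3 members lower with OSM against vehicle, 1 (Gja1) was left with the length trend removed, with the interval beyond 4-fold, and with an assumed spread of 0.1 or 0.2 per library, and 0 with a spread of 0.4. An interval beyond 1.5-fold gave 6 lower (with Cdh2, Dsc2 and Tjp1 added) and 1 higher (Jup). Of all genes compared, 11.9% were lower and 8.73% higher at that limit. With the length trend removed 4.67% of all genes were lower, and beyond 4-fold 0.83%. With spreads of 0.1, 0.2 and 0.4, 2.62%, 1.56% and 0.53% of all genes were lower. Of the 3 lower against IL-6, 2 (Gja1 and Dsg2) were left with the length trend removed, beside 4.88% of all genes. With a spread of 0.1 or 0.2, 1 (Gja1) was left, beside 2.85% and 1.61% of all genes. With a spread of 0.4 or beyond 4-fold 0 were left, beside 0.46% and 0.80%. Beyond 1.5-fold 5 members were lower and 1 higher, beside 11.9% and 8.78% of all genes. Other scalings, filters, estimates and thinning changed no count of called members, and over the scalings Gja1 lay between -2.18 and -2.09 and Jup between 0.75 and 0.85. By counts in place of fpkm, the Gja1 share of connexins was 93.6% with vehicle, 93.3% with IL-6 and 77.3% with OSM. Over all genes, 844 lower and 581 higher with OSM became 83 and 81 with a spread of 0.4, and 2034 and 1565 when the point estimate alone had to pass 2-fold. For IL-6 against vehicle no alternative gave a called member. The spread between cultures was not measured, and these assumed spreads stand in for it. TMM from the compared genes only, the length trend for the other lists and the marker sums without Abcc9 or Cd68 were added after seeing the data. No paired analysis was possible because each condition has 1 library.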
